A study of Mus musculus with 2 samples.

Results

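Enterocytes marked by Car4, Plac8, Oat and Krt19 are described here in single-cell RNA profiles of mouse small intestine. Of 21629 cell barcodes in 2 libraries, 1055 were members, 383 from the Adipfl/fl library and 672 from the Adipfl/flpVilli-CreT library. A barcode could be a member when it had more than 500 detected genes, under 25% of its UMIs (unique molecular identifiers, 1 per captured transcript) from mitochondrial genes, under 1% from the goblet cell genes Muc2, Tff3 and Zg16, and no UMI of Cd3e, Cd3g, Tyrobp, Trpm5, Chgb, Olfm4 or Top2a. These limits left 5472 barcodes, 1912 and 3560. Each was scored for 4 lists of 4 genes, a score being the list's share of the cell's UMIs divided by the mean share over the 5472 barcodes, and members were those in which Car4, Plac8, Oat and Krt19 gave the highest score. They were thus chosen by the measured counts of all 16 scored genes and of the genes in the limits. The other lists were Slc5a12, Cubn, Cyp3a11 and Slc2a2 (the mid-villus list), Ada, Nt5e, Slc28a2 and Ly6m (the tip list), and Lypd8l, Areg, Bche and Slc51a (the Lypd8l list), which were highest in 1838, 1506 and 1061 barcodes. In 12 barcodes no list was highest.

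The study asked what adiponectin, a hormone known mainly from fat cells, does in the gut epithelium. Cells came from Adipfl/fl mice, which carry loxP-flanked Adipoq alleles and no Cre, and from Adipfl/flpVilli-CreT littermates, in which Cre driven by the villin promoter removes the gene from intestinal epithelial cells; both genotypes thus share the floxed alleles. Tissue was pooled from male mice aged 8 weeks, dissociated with enzymes, depleted of dead cells on beads and run on the 10x Genomics 3′ kit, giving 1 library per genotype. The paper states that the epithelium was enriched for crypts, and the effect of this on the shares below was not tested. With 1 library per genotype no difference between the genotypes could be tested, and the intervals below (95%, exact Poisson, conditional or Clopper-Pearson) cover counting error only. The libraries held 42150623 and 63370798 UMIs, of which members gave 6742551 and 11551215. Levels are UMIs per 1000000 UMIs (CPM) summed over the cells of a group. Adipoq had 1 UMI in the whole Adipfl/fl library and 0 in the Adipfl/flpVilli-CreT library, where 3 counts would be 0.0473 CPM, so the deletion could not be checked from these counts.

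Enterocytes, the absorptive cells of the gut lining, leave the crypt and move up the villus until they are shed at its tip. On the way they pass through programmes in turn. Cells at the bottom of the villus are known for antimicrobial genes such as Reg3b, those of the middle for sugar and amino acid uptake, and those of the tip for apolipoproteins and purine metabolism. Position was not measured in these libraries, and all that follows is known from RNA alone.

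Members had the RNA of enterocytes. Vil1, which encodes the brush border protein villin, was at 1343 and 1399.5 CPM in members of the Adipfl/fl and Adipfl/flpVilli-CreT libraries, against 201 and 524 CPM in barcodes with Cd3e UMIs (T cells), which show the level that free RNA or mixed droplets can give. Fabp2, the intestinal fatty acid binding protein, reached 12595 and 10519 CPM, and Alpi, the brush border alkaline phosphatase, 326 and 279 CPM. Markers of other cells were low for most lists. The T cell list summed to 30.8 and 27.4 CPM, the Paneth list to 3.41 and 9.78 CPM, the tuft list to 2.82 and 2.51 CPM, the myeloid list to 3.26 and 3.38 CPM, and the red blood cell list was at 0 in both. Goblet, enteroendocrine and plasma cell genes were higher and are given below.

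Members were also the deepest and least mitochondrial of the enterocytes. Their median was 16344 UMIs and 3921 genes per cell in Adipfl/fl and 16092 UMIs and 3906 genes in Adipfl/flpVilli-CreT, against 5122 and 5175 UMIs in the group of the Lypd8l list, 3826 and 3763 in the mid-villus group and 3760 and 3541 in the tip group. Mitochondrial genes took 6.91% and 6.39% of the median member's UMIs, against 18.8% to 21.3% in the other groups. Among eligible barcodes under 5% mitochondrial UMIs, 85.5% of Adipfl/fl and 90.2% of Adipfl/flpVilli-CreT barcodes were members. The share was 19.4% and 18.2% between 10% and 15%, and 4.13% and 2.73% between 20% and 25%. Each contrast with the other groups below therefore goes along with a difference in depth and mitochondrial share. Values within the barcodes of 10% to 15% mitochondrial UMIs and within those of 4000 to 8000 UMIs, both chosen after seeing the data, are given beside some of the results, as are values under a 10% limit. Under that limit the scores were also recomputed against the mean shares of the fewer barcodes, so cells changed group. Of the members 259 and 501 had under 10% mitochondrial UMIs, but 121 and 216 cells were members after rescoring, and the group of the mid-villus list then held 97 and 221 cells, against 20 and 44 of its cells under 10% before rescoring. The effect of the limit and that of the regrouping cannot be told apart in these values.

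**Figure D1:**
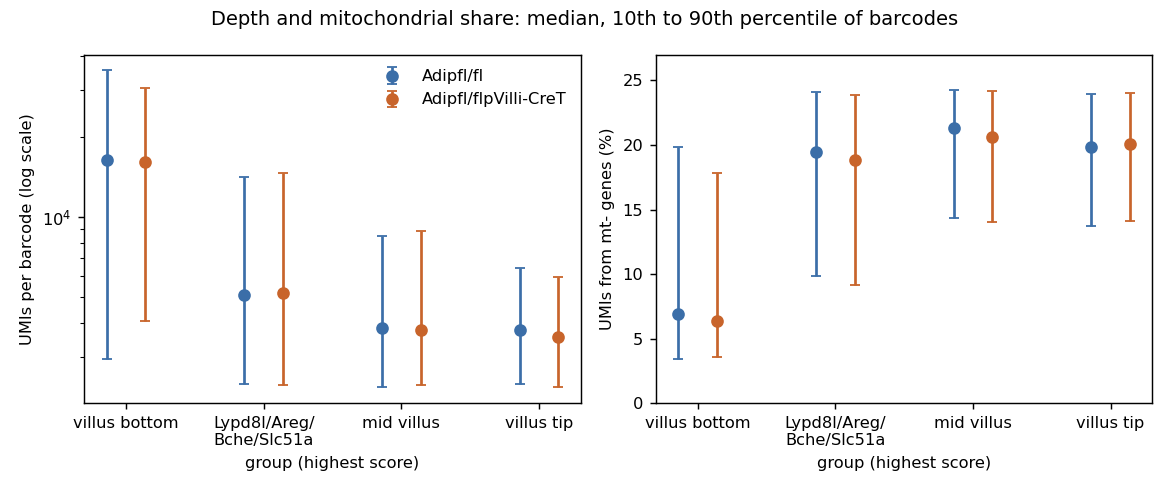
UMIs per barcode and percent of mitochondrial UMIs in members and in the other enterocyte groups, by library. Members lie highest in UMIs (medians 16344 and 16092) and lowest in mitochondrial share (6.91% and 6.39%) in both libraries.

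The 4 defining genes describe the members and, having chosen them, test nothing. Plac8, a small cysteine-rich protein, carried most of the score, with 70.8% and 70.4% of the list's UMIs. It stood at 7760.3 CPM in Adipfl/fl members and 8033 CPM in Adipfl/flpVilli-CreT members, against 2489.8 and 2796 in the Lypd8l group and 191 and 267 in the tip group. Oat, ornithine aminotransferase of the mitochondrial matrix, stood at 1504 and 1634 CPM in members against 760.0 and 764 in the Lypd8l group. Krt19, a keratin of simple epithelia, stood at 1567 and 1579.7 CPM against 702 and 630.2. Car4, a membrane-anchored carbonic anhydrase, was the least abundant with 129 and 158 CPM against 40.8 and 56.8, and was near 0 in the tip group (0.602 and 3.43 CPM). Members thus lay above the Lypd8l group, which lay above the mid-villus and tip groups, for each of these genes in both libraries.

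Few members carried all 4 genes at equal depth. At full depth 170 of 383 and 346 of 672 members had a UMI of each. With every cell thinned to 2000 UMIs, which left out 20 and 26 members, the counts were 52 (14.3%) and 121 (18.7%). Thinned detection of Plac8 was 97.5% and 98.6%, of Oat 82.1% and 85.4%, of Krt19 69.1% and 73.2% and of Car4 15.4% and 20.7%. Free RNA sets a background for such shares. In barcodes with Cd3e UMIs, T cells that should lack Car4, thinned detection was 0.932% and 1.63%. Before thinning Car4 was detected in 44.9% and 52.5% of members, at median depths of 16344 and 16092 UMIs, and in 1.81% and 6.78% of the Cd3e barcodes, at 5465 and 4891 UMIs. Car4 helped to choose the members, so its share there is a description only.

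The members shade into the group of the Lypd8l list. Their second score was that list in 75.2% and 79.8% of cells. Of 1055 members, 142 had a second score within 1.2-fold of the first, 295 within 1.5-fold, and 502 had a first score at least 2-fold the second, while 130 cells of other groups missed membership by less than 1.2-fold. The median member scored 3.37 and 3.53 for its own list, 1.34 and 1.52 for the Lypd8l list, 0.259 and 0.335 for the mid-villus list and 0.0049 and 0.0177 for the tip list. Membership is a range on a score, and whether the members form a separate cell type was not tested.

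**Figure D2:**
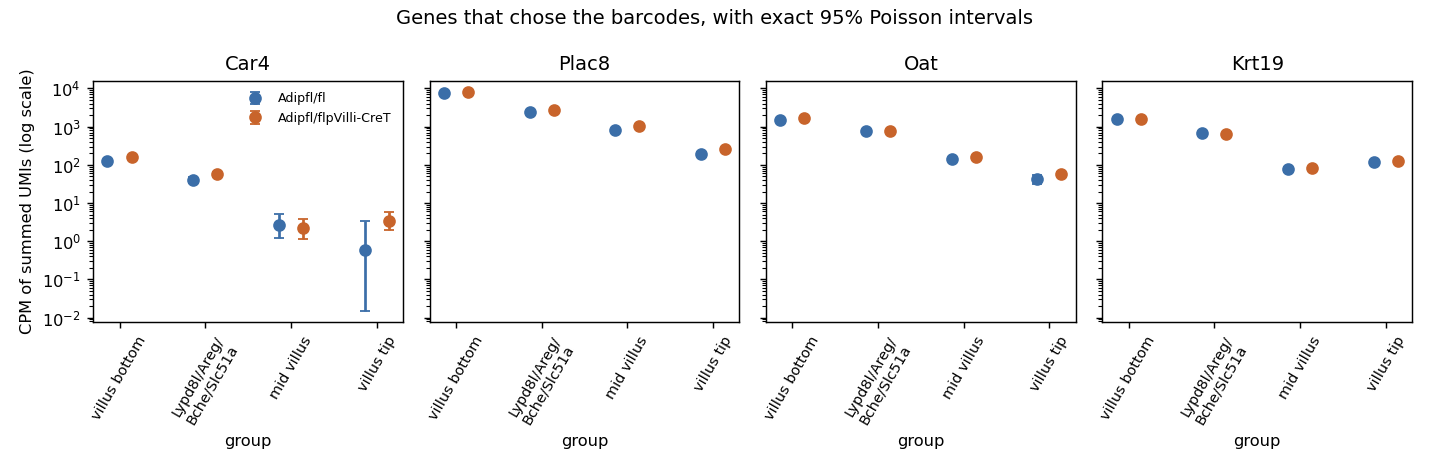
CPM of Car4, Plac8, Oat and Krt19 in members and the other 3 groups in each library, on a log axis with exact Poisson 95% intervals. Each gene is highest in members, next in the Lypd8l group (Plac8 7760.3 against 2489.8 CPM in Adipfl/fl).

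Genes known from the villus bottom that the scores did not use were checked next, since the label rests on position. All 8 measured genes of a 10-gene list were above the mean of the other groups in both libraries, but 1 of 8 was at least 2-fold above all 3 others in both libraries. Of the 8, 2 were measured through the members alone (in at least 1 library no other group reached the minimum level of 50 CPM). Their place above the other groups, and so the list's median below, is in part set by that level. Over all genes, 295 of 3544 (8.32%) passed the 2-fold limit upward and 95 (2.68%) downward. Of the 295, 121 were measured through the members alone. The median log2 ratio to the mean of the other groups was 1.38 and 1.43 for the list and 0.28 and 0.24 for all 3544 genes, or 0.10 and 0.07 for all genes when mitochondrial genes were left out of the UMI totals. The gene of the list past the limit was C1qbp, a mitochondrial matrix protein and 1 of the 2 measured through the members alone. It had 76.7 and 68.8 CPM against at most 12.2 and 7.76 in another group. Ccl25, the chemokine that draws lymphocytes to the small intestine, was at 901 and 942 CPM in members, 641 and 575 in the Lypd8l group and 45.8 and 57.4 in the tip group. Nlrp6, an innate immune sensor, was close in members (368 and 355 CPM) and the Lypd8l group (344 and 327 CPM). Il18, an epithelial cytokine, was at 254 and 269.6 CPM in members against 166 and 169.7. These genes order the groups as the score does, yet for most of them members and the Lypd8l group lay within 2-fold.

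The antimicrobial lectins had the same order. Reg3b, a bactericidal lectin, was the most abundant of the list, with 17302 CPM in Adipfl/fl members and 19892 CPM in Adipfl/flpVilli-CreT members, against 13538 and 16203 in the Lypd8l group and 3437 and 2147 in the tip group. Within 10% to 15% mitochondrial UMIs members were below the Lypd8l group, with 12575 and 12645 CPM against 14321 and 17056. Its relative Reg3g differed little, at 5981 and 6533 CPM against 5417 and 6251. Lypd8, a secreted protein that keeps flagellated bacteria off the epithelium, passed the limit with 3315 and 4031 CPM in members against 1376 and 1823 in the Lypd8l group. Dmbt1, a scavenger receptor that binds bacteria, also passed it with 489 and 524 CPM against 157 and 166. Gsdmc4, a gasdermin, had 379 and 573 UMIs in members and at most 7 in any other enterocyte group. The UMI totals behind these counts differ, with 6742551 and 11551215 in members against 1660920 and 4372856 in the tip group. Gsdmc4 was under the minimum level in Adipfl/flpVilli-CreT, so it was not among the 8 measured genes. Barcodes with Cd3e UMIs held 102 UMIs of Gsdmc4 in the Adipfl/flpVilli-CreT library. With the 10% limit and the rescoring that goes with it, the summed villus bottom list was no longer higher than the mean of the other groups (log2 ratio -0.08 and -0.26). Members then had 24599.6 and 24925 CPM of the list, against 33042 and 36915 in the Lypd8l group, 27689 and 38162 in the mid-villus group and 17372 and 14586 in the tip group. That list is made up mostly of Reg3b.

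Genes of the cytosolic ribosome were higher in members. Of 41 cytosolic ribosomal protein genes 40 were at least 2-fold above all other groups in both libraries, where 8.32% of all genes were. The exception, Rpl38, was at 681 and 816 CPM against 355 and 391. The list summed to 45525 CPM in Adipfl/fl members, 15385 in the Lypd8l group, 3356 in the mid-villus group and 1582 in the tip group. In Adipfl/flpVilli-CreT it summed to 41818, 13362, 3099 and 1891 CPM. Rps15a, a small subunit protein, was at 1115 and 1129 CPM against 187 and 215 in the Lypd8l group and 14.4 and 26.8 in the tip group. Rpl12, of the large subunit, was at 851 and 731 CPM against 153 and 123. The median log2 ratio of the 41 genes to the mean of the other groups was 2.87 in Adipfl/fl and 2.85 in Adipfl/flpVilli-CreT. Ribosomal protein RNA thus stepped down from members to the tip group in both libraries under the 25% limit, but not under a 10% limit with rescoring, as given next.

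Depth and mitochondrial share go along with this contrast. Between 10% and 15% mitochondrial UMIs, where 45 and 75 members remained, the list summed to 33732 and 28886 CPM in members, 17991 and 15494 in the Lypd8l group and 1785 and 1788 in the tip group. Between 4000 and 8000 UMIs it summed to 36120 and 22256 CPM in 36 and 70 members against 11777 and 8803 in the Lypd8l group. With a 10% limit it was 70815 and 64442 CPM in members, 37216 and 37245 in the tip group, 34862 and 34389 in the Lypd8l group and 13154 and 13236 in the mid-villus group, with cells regrouped by the rescoring. Members stayed highest, the order of the others changed, and 0 of the 41 genes were 2-fold past all 3 other groups. The tip group then had 18 and 49 cells, against 6 and 18 of its cells under 10% before rescoring. Ribosomal protein RNA was also high outside the epithelium, at 86387 and 73289 CPM in barcodes with Cd3e UMIs.

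Many ribosomal protein messages are known to begin with a pyrimidine tract that ties their translation to nutrient signals. The start sites of genes that lead this contrast, and of 2 of the defining genes, are shown for that reason, from RefSeq on GRCm38.p6, each with 30 bases before the annotated start and 30 from it, with a match to the motif in capitals.
Rpl12 (chr2:32961682-32961741, plus strand): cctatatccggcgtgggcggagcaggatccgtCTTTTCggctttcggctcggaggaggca
Rps2 (chr17:24720033-24720092, plus strand): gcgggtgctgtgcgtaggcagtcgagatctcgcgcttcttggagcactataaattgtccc
Car4 (chr11:84957724-84957783, plus strand): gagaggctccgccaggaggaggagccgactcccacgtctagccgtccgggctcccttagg
Oat (chr7:132576369-132576428, minus strand): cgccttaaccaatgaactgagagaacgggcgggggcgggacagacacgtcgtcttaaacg
The letters searched were CTTTTC first, then CTTTCC and lastly CTCTTC, all on the gene's strand with their first base within 10 bases of the start. They were found in 9 of the 31 ribosomal protein genes with a sequence (29.0%) and in 982 of 27025 genes in all (3.63%). None of 35 nuclear oxidative phosphorylation genes and none of 3 defining genes had them there. In the whole 300-base window on either strand the letters were common, in 87.1% of the ribosomal protein genes and 60.3% of all genes. A match is a description of the annotated start, not evidence of how the gene is read.

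Of 15 nucleolar and ribosome assembly genes 3 were abundant enough to be measured, and 2 passed the limit, where 8.32% of all genes did. Both were measured through the members alone, as were 394 of the 3544 genes, so their passing is in part set by the minimum level. Npm1, the nucleolar protein nucleophosmin, was at 230.3 and 187 CPM against 62.1 and 45.7 in the Lypd8l group, and Nop10, of the small nucleolar particles that modify ribosomal RNA, at 93.0 and 96.1 CPM against 15.7 and 18.0. Genes with the largest ratios to the other groups, beside ribosomal ones, included Ppia and Ptma. Ppia, a protein folding enzyme, was at 971 and 960.2 CPM against 209 and 193. Ptma, a chromatin protein of dividing cells, was at 458 and 463 CPM against 82.7 and 89.6. Of the crypt and cycling genes 3 of 21 were abundant enough, and 2 passed the limit, of which Ccnd2 was measured through the members alone. Ccnd2, a G1 cyclin, was at 71.0 and 103 CPM against 14.3 and 30.6, and Hmgb2, a chromatin protein, at 168 and 143 against 83.4 and 60.8. The division marker Mki67 was lower, with 19.0 and 13.8 CPM in members and at most 2.79 in another enterocyte group. The stem cell gene Lgr5 had 0 CPM in Adipfl/fl members and 0.0866 CPM in Adipfl/flpVilli-CreT members. Barcodes with Olfm4 or Top2a UMIs, genes of stem and dividing cells, were removed by the rule, which bears on these low values.

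Mitochondrial genes divided by genome. Of 41 measured nuclear genes of oxidative phosphorylation 9 passed the limit upward, where 8.32% of all genes did. All 41 were above the mean of the other groups in both libraries. The list summed to 43162 and 44151 CPM in members against 25638 and 26384 in the Lypd8l group and 6294 and 6741 in the tip group. The median log2 ratio of the 41 genes to the mean of the others was 1.499 and 1.453. Cox8a, of cytochrome oxidase, was at 2368 and 2356 CPM against 963 and 1013 in the Lypd8l group. Proteins of mitochondrial import, folding and translation had 9 of 14 past the limit, of which 5 were measured through the members alone. Among them Hspe1 and Hspd1, which together form the matrix chaperonin, were at 233 and 204 CPM and at 162 and 149.5 CPM in members, against 39.4 and 34.4 and 33.8 and 36.1 in the Lypd8l group. Under the 10% limit both contrasts were much smaller. The oxidative phosphorylation list then summed to 48114 and 48326 CPM in members, 40968 and 43341 in the Lypd8l group and 41131 and 41537 in the mid-villus group. The import, folding and translation list summed to 6402 and 6241 in members, 5593 and 5518 in the Lypd8l group and 6019 and 5994 in the mid-villus group. Genes of the mitochondrial genome went the other way, with 42813 and 44656 CPM in members against 71980 and 73361 in the Lypd8l group. The direction was not the same in all cells compared. With the 10% limit and its rescoring members had 32456 and 34411 CPM, against 35520.5 to 46334 and 34569.6 to 45037 in the other groups. Between 10% and 15% mitochondrial UMIs, members had 76869 and 82140 CPM of them against 56218 and 60819 in the mid-villus group. The ribosomal RNA mt-Rnr2 was at 17957 and 15832 CPM in members and 106559 and 99884 in the tip group.

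**Figure D3:**
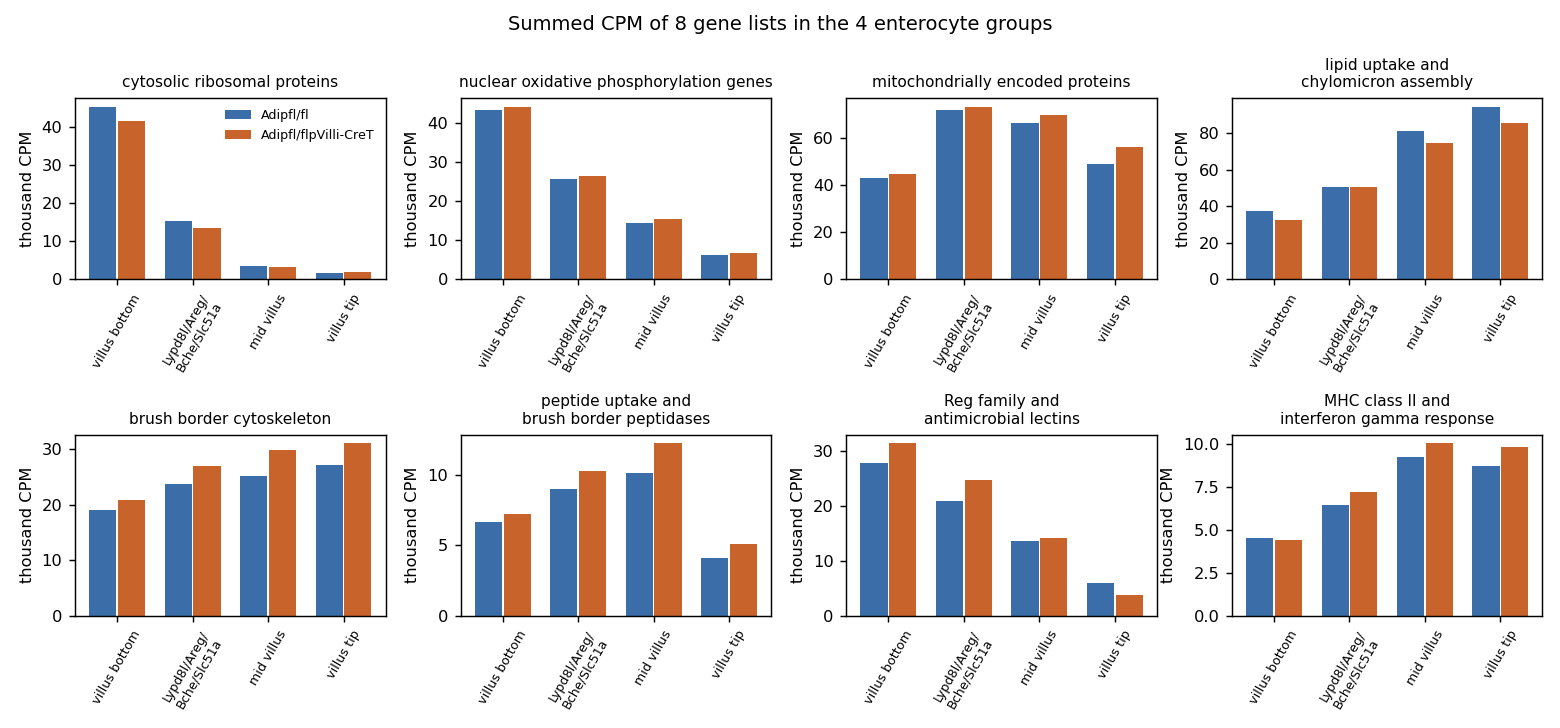
Summed CPM of gene lists in members and the other 3 groups of each library, as bars on a linear axis. Ribosomal protein genes step down from members (45525 and 41818 CPM) to the tip group (1582 and 1891 CPM) under the 25% mitochondrial limit, and lipid genes step up.

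Genes of ornithine and citrulline synthesis, a pathway that includes Oat, were described for that reason. In this pathway gut cells turn glutamine into citrulline, which the kidney makes into arginine. Cps1, the matrix enzyme that makes carbamoyl phosphate, passed the limit, measured through the members alone, with 159 CPM in both libraries' members against 28.6 and 31.0 in the Lypd8l group and 5.42 and 5.49 in the tip group. It was 1 of 9 measured genes (a list that includes Oat) to do so, where 8.32% of all genes did. Between 4000 and 8000 UMIs Cps1 was at 136 and 118 CPM against 14.3 and 22.2 in the Lypd8l group. Otc, which joins carbamoyl phosphate to ornithine, was at 307 and 323 CPM in members, 211 and 217 in the Lypd8l group and 9.63 and 12.3 in the tip group. Without Oat, which the rule used, the list summed to 2333 and 2411 CPM in members and 1782 and 1733 in the Lypd8l group. With the mitochondrial limit at 10% these sums were 2403 and 2508 against 2379 and 2467, so members and the Lypd8l group were then close.

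Among iron and redox genes a few were higher in members. Fth1, the ferritin heavy chain that stores iron, was at 7111 and 6627 CPM in members against 3164 and 3265 in the Lypd8l group. Tfrc, the transferrin receptor, was at 89.6 and 112 CPM against 25.1 and 28.9. Both passed the limit, of 4 iron genes measured, and Tfrc was measured through the members alone. Of 17 glutathione and xenobiotic genes 4 passed it, where 8.32% of all genes passed upward. Gpx1, a glutathione peroxidase, was at 647 and 587 CPM against 312 and 258, and Gpx2, its gut form, at 455 and 422 against 211 and 180.4. Mgst1 and Mgst2, microsomal glutathione transferases, were the others. Under the 10% limit members were no longer highest for iron genes in Adipfl/fl or for glutathione genes in either library. Iron genes then summed to 8796 and 8347 CPM in members, 8049 and 7890.0 in the Lypd8l group and 8958 and 7404 in the mid-villus group. Glutathione genes summed to 7370.2 and 7236 CPM in members, 7733 and 7623 in the Lypd8l group and 8197 and 8287 in the mid-villus group. Between 10% and 15% mitochondrial UMIs, iron genes summed to 5478 and 5292 CPM in members against 4430.3 and 4151 in the Lypd8l group, and glutathione genes to 6753 and 6273 against 6644 and 6187.

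Some lipid genes of the upper villus were lower in members. Of 14 measured genes of lipid uptake and chylomicron assembly none passed the limit upward and 2 passed it downward, Apoa4 and Apoa1, where 2.68% of all genes passed downward. In each library 5 of the 14 were above the mean of the other groups. Apoa4, an apolipoprotein of chylomicrons, was at 1578 and 1258 CPM in members, 4018 and 3768 in the Lypd8l group, 10987 and 8396 in the mid-villus group and 26578 and 21056 in the tip group. The median log2 ratio of the list to the mean of the other groups was -0.71 and -0.73, and it summed to 37078 and 32567 CPM in members and 94601 and 85846 in the tip group. Between 10% and 15% mitochondrial UMIs it was at 30815 and 31012 CPM in members and 96263 and 80354 in the mid-villus group. Fabp1, the liver-type fatty acid binding protein, was 1 of those above the mean and highest in members, at 6776 and 5554 CPM against 3816 and 3637. Among genes of sugar uptake 0 of 9 passed the limit in either direction, and among brush border peptidases 0 of 12. Slc6a19, a carrier of neutral amino acids, was low at 152 and 188 CPM against 735 and 843 in the mid-villus group.

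Single genes from several lists had their lowest or highest level in members. Of 5 measured genes of cell cycle exit 0 passed the limit. Krt20, a keratin of differentiated cells, was at 832 and 859 CPM in members and 4537 and 4709 in the tip group. Klf4, a factor of cell cycle exit, was at 203 and 183 CPM against 1344 and 1343, while its relative Klf5, known from proliferating crypt cells, was at 641 and 592 CPM against 84.9 and 74.3. Prdm1, a repressor, was at 4.45 and 5.28 CPM in members and 190.3 and 198 in the tip group. H2-K1, a class I antigen-presenting molecule, was at 1134 and 1307 CPM in members and 2307 and 2927 in the Lypd8l group. Of 19 transcription factors measured, Prdm1 alone passed the limit, where 2.68% of all genes passed downward.

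Members varied among themselves in several of the same genes, but not in all. They were split in each library into 3 parts of equal size (low, middle and high) by their score, which again describes the range and tests nothing. Ribosomal protein genes summed to 23073, 35618 and 61875 CPM from the low to the high part in Adipfl/fl and to 22047, 37815 and 55439 in Adipfl/flpVilli-CreT. Lipid genes ran from 58066 CPM in the low part to 20649 in the high part, and from 52952 to 19845. Reg1, a Reg family lectin, was at 21.8, 64.9 and 211 CPM in Adipfl/fl and 71.0, 74.2 and 136 in Adipfl/flpVilli-CreT. The more abundant Reg3b differed between the libraries in direction, with 15174 CPM in the low part and 17944 in the high part in Adipfl/fl, and 21887 and 18073 in Adipfl/flpVilli-CreT. The villus bottom list likewise summed to 23679.7, 26886 and 27515 CPM from low to high in Adipfl/fl and to 31974, 30537 and 27897 in Adipfl/flpVilli-CreT. Mki67 was lower with a higher score in both libraries, from 51.1 to 5.46 CPM and from 35.3 to 4.28. Depth and mitochondrial share moved with the score. Median UMIs were 6434.5 in the low part and 21873 in the high part in Adipfl/fl, and 9859.5 and 19618.5 in Adipfl/flpVilli-CreT. The median mitochondrial share was 15.4%, 5.97% and 5.50% from low to high in Adipfl/fl and 8.96%, 6.29% and 5.19% in Adipfl/flpVilli-CreT, and its part in these differences was not tested. The low part held nearly all RNA of B and plasma cell genes (6473 and 9984 CPM against at most 33.3 in another part).

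**Figure D4:**
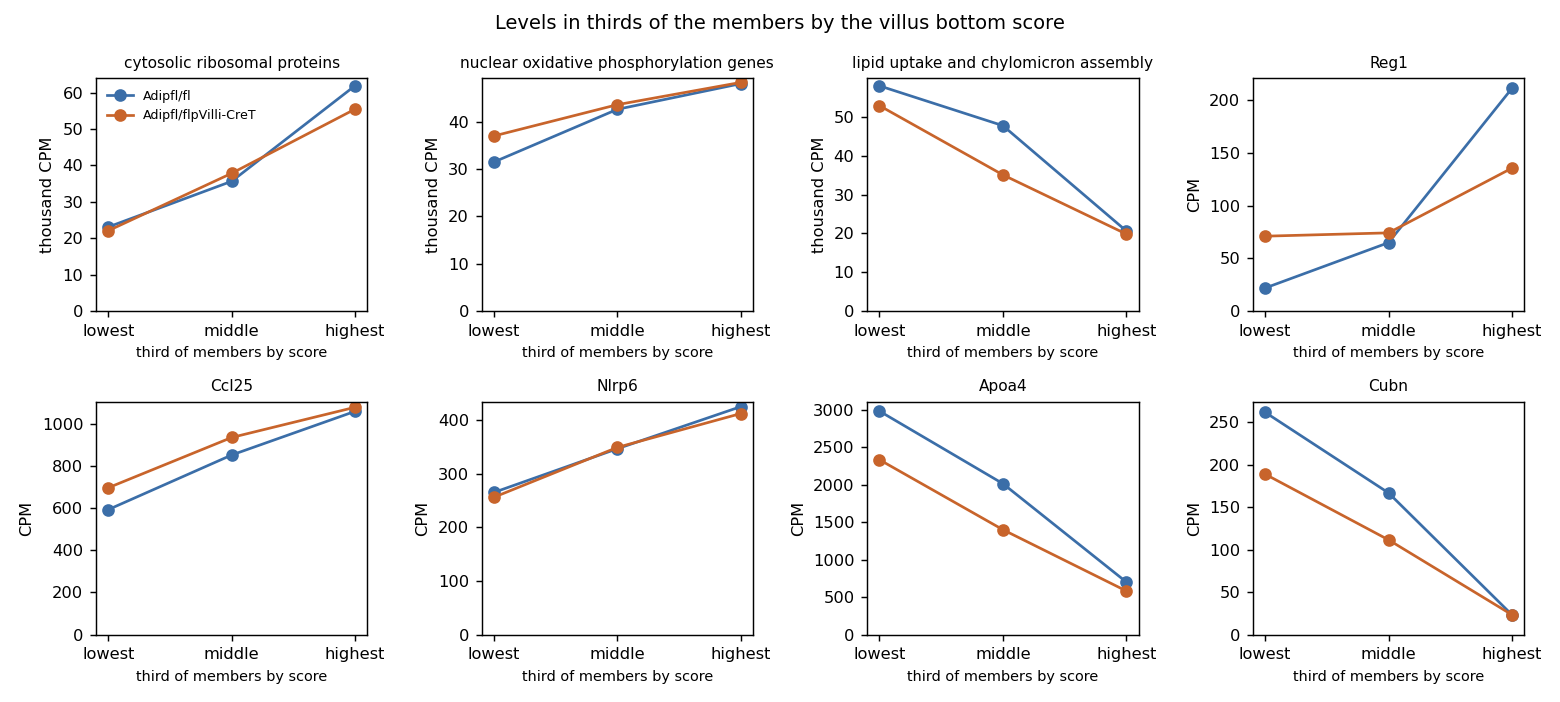
Summed CPM of gene lists in members split into 3 parts of equal size by score, with a line for each library. Ribosomal protein RNA is higher in the high part (61875 and 55439 CPM) than in the low part (23073 and 22047 CPM), and lipid genes the reverse.

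The share of members depended on what it was taken of. They were 20.0% of eligible Adipfl/fl cells (18.3 to 21.9) and 18.9% of eligible Adipfl/flpVilli-CreT cells (17.6 to 20.2), a ratio of 0.942 (0.830 to 1.07). Of all barcodes they were 3.91% (3.54 to 4.31) and 5.68% (5.27 to 6.11). The libraries differed in what the limits removed, since of the barcodes with over 500 genes the mitochondrial limit kept 39.7% (3069 of 7739) in Adipfl/fl and 56.6% (5555 of 9818) in Adipfl/flpVilli-CreT. The part of this difference in the shares was not tested. For comparison the tip group went from 21.1% to 31.0%, 1.47 times as large (1.31 to 1.65), while the group of the mid-villus list went from 37.3% to 31.6%. Animals were pooled, so spread between mice is unknown for each of these shares. The shares of the groups add up to a whole, so a lower share of one cannot be told apart from a higher share of another.

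Between the genotypes the members' RNA was close. Of 3190 measured genes 24 (0.752%) were at least 1.5-fold higher in Adipfl/flpVilli-CreT and 10 (0.313%) at least 1.5-fold lower, and the median log2 fold was -0.003. Some of the genes past 1.5-fold reached the minimum of 50 CPM in 1 library only, so their passing is in part set by that level. Examples are Ly6m, at 21.7 CPM in Adipfl/fl members, and Tifa, at 31.5 CPM in Adipfl/flpVilli-CreT members. The 4 genes that chose the members, by 1 rule with a mean over both libraries, are given as a description only. Plac8 differed by 1.04-fold, Oat by 1.09, Krt19 by 1.01 and Car4 by 1.23 (1.13 to 1.33). The ribosomal protein list, the lipid list and the Reg and lectin list had 0 genes past 1.5-fold in either direction and summed to 0.919, 0.878 and 1.13 times their Adipfl/fl level. The receptors for adiponectin were also close, with Adipor1 at 128 CPM in Adipfl/fl and 123 in Adipfl/flpVilli-CreT and Adipor2 at 409 and 363.

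Mt1, a metallothionein that binds zinc and copper, had the highest fold under the main settings, though not under every alternative. It was at 885 CPM (862 to 907) in Adipfl/fl members and 3196 CPM (3163 to 3228) in Adipfl/flpVilli-CreT members, 3.61-fold (3.51 to 3.71) higher. It was found in 82.2% and 97.6% of members. The fold was larger in the other enterocyte groups, 5.64 in the Lypd8l group, 16.9 in the mid-villus group and 74.9 in the tip group, and was 12.1 in barcodes with Cd3e UMIs. Its neighbour Mt2 was lower, at 169.5 and 103 CPM, a fold of 0.606 (0.558 to 0.657). Mt2 was 0.505-fold in the Lypd8l group, 0.886 in the tip group, 1.08 in the mid-villus group and 2.39 in barcodes with Cd3e UMIs. The opposite directions of Mt1 and Mt2 thus held in members and the Lypd8l group past 1.5-fold, and not in every group.

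The mitochondrial gene mt-Nd3, a complex I subunit, was 2.51-fold (2.43 to 2.60) higher, from 582 to 1460.4 CPM, and also 2.38- to 2.67-fold higher in the other enterocyte groups and 3.70-fold in barcodes with Cd3e UMIs. It was the only mitochondrially encoded gene of 11 measured to pass 1.5-fold. Genes with near-identical copies, whose reads may be split between them, were among the higher ones. Gm10076, a ribosomal protein L41-like gene, was 2.19-fold higher and Gstp1 1.84-fold. Sec61g, of the channel into the endoplasmic reticulum, was 2.33-fold higher. Herpud1 and Dnajb9, in none of the gene lists and named after their values were seen, were 1.89- and 1.52-fold higher. Their folds were 1.64 and 1.67 in the Lypd8l group and 1.42 and 1.28 in the mid-villus group. In the tip group they were 0.922 and 1.06, and in barcodes with Cd3e UMIs 1.25 and 1.19. Of the 24 higher genes 22 passed 1.5-fold the same way in barcodes with Cd3e UMIs, 19 in the Lypd8l group, 14 in the mid-villus group and 12 in the tip group, and 9 in all of these. Of all 3190 genes measured in members, 1093 (34.3%) were 1.5-fold higher in Cd3e barcodes, 32 in the Lypd8l group, 70 in the mid-villus group and 286 in the tip group.

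Genes of the tip list were among the higher ones. Ly6m, a small surface protein, was at 21.7 and 76.4 CPM, 3.53-fold higher (2.96 to 4.24), and Ada, adenosine deaminase of purine breakdown, at 28.6 and 79.4 CPM, 2.77-fold higher (2.37 to 3.26). Both belong to a list that chose the groups. Over the alternatives their log2 folds ran from 1.406 to 2.836 (Ly6m) and from 0.8372 to 2.661 (Ada). In the tip group itself their folds were 1.06 and 1.07, and in barcodes with Cd3e UMIs 3.48 and 2.22. Clca4a, of a family of chloride channel regulators, was at 32.5 and 78.5 CPM and 0.959-fold in the tip group. The tip group was a larger share of eligible cells in Adipfl/flpVilli-CreT (31.0%) than in Adipfl/fl (21.1%). The part of its free RNA in these values was not tested.

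RNA of goblet and plasma cells also differed. All 4 measured goblet genes were at least 1.5-fold higher, where 0.752% of all 3190 genes were. Zg16, a mucus lectin, was at 73.1 and 184 CPM (2.52-fold), Muc2, the gel-forming mucin, at 38.1 and 87.0 (2.28-fold), with Tff3 and Fcgbp, of the same mucus, at 2.12- and 2.05-fold. Muc2, Tff3 and Zg16 were held under 1% of UMIs by the rule itself. The list of 7 summed to 235 and 558 CPM, and Zg16 was 2.60 to 2.64-fold higher in the other enterocyte groups. Immunoglobulin genes Igkc, Igha and Jchain were 2.04-, 1.503- and 2.11-fold higher. In a wider set of immunoglobulin genes that includes them, 4 of 383 and 8 of 672 members held 98.6% and 99.1% of the UMIs. Those cells had over 1% of UMIs from that set. Without them 21 genes were higher, all shared with the 24. The enteroendocrine list was at 70.2 and 74.1 CPM. The fibroblast list was at 417 UMIs in Adipfl/flpVilli-CreT, of which 97.1% were in 1 cell. Barcodes with Cd3e UMIs held more enterocyte RNA in Adipfl/flpVilli-CreT, for instance Krt19 at 111 and 471 CPM and Reg3b at 1388 and 6047. The part of free RNA or of doublets in the values above was not tested.

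**Figure D5:**
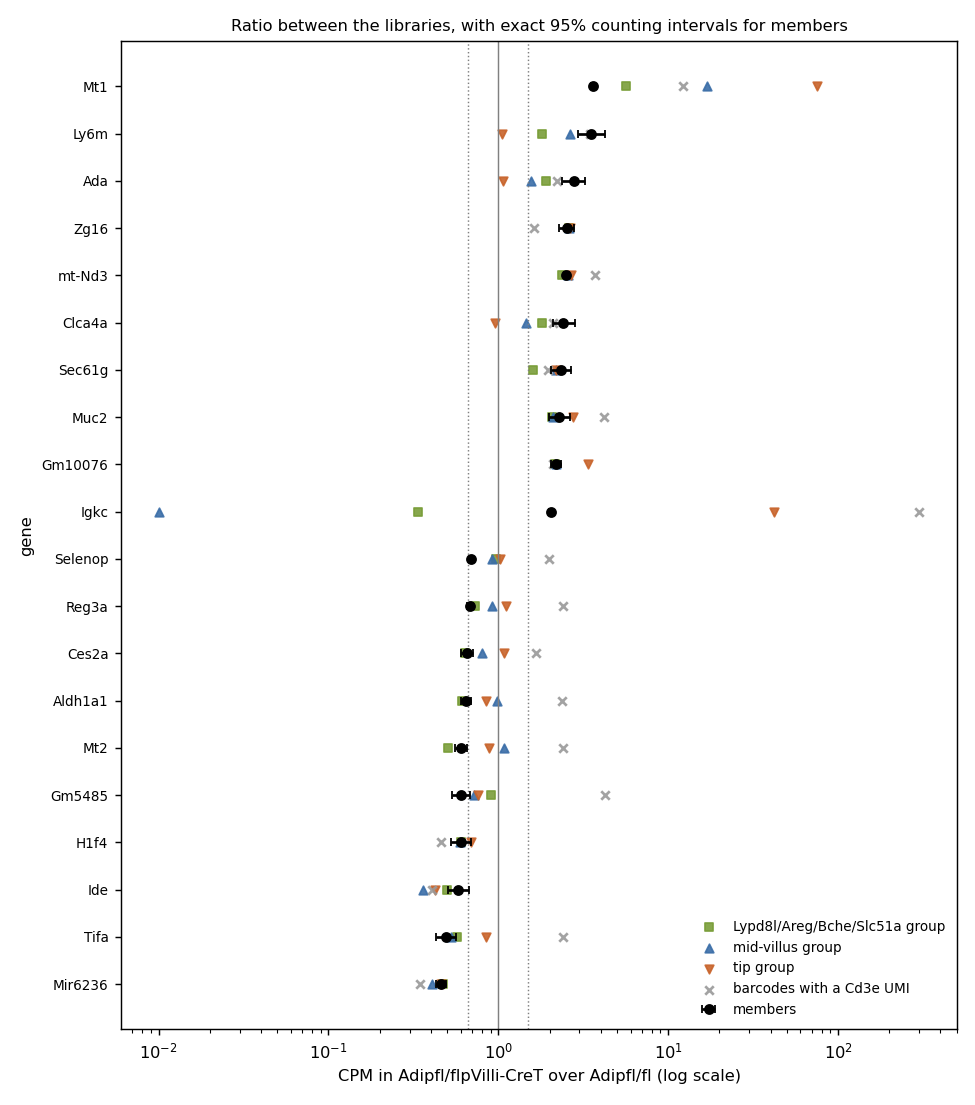
Fold of Adipfl/flpVilli-CreT over Adipfl/fl in members for 20 genes, 10 from each end by their interval limits, with exact 95% intervals for counting error, and the fold of the same genes in the other groups, on a log axis. Under the main settings Mt1 has the highest fold in members (3.61), with an interval that overlaps that of Ly6m (2.96 to 4.24), and Mir6236 the lowest (0.460).

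Fewer genes were lower. Mir6236, annotated as a microRNA gene, was at 273 and 126 CPM (0.460-fold) and 0.347- to 0.471-fold in all other groups. Tifa, an adaptor of innate immune signalling, was at 64.1 and 31.5 CPM (0.492-fold, 0.427 to 0.567), and Ide, the insulin-degrading protease, at 61.1 and 35.5 (0.581-fold). H1f4, a linker histone, was at 60.1 and 36.1 CPM, but its direction turned within 4000 to 8000 UMIs (log2 fold 0.141). Aldh1a1, which makes retinoic acid, was at 220.4 and 143 CPM (0.647-fold, 0.603 to 0.694) and 0.611-fold in the Lypd8l group, 0.976 in the mid-villus group, 0.844 in the tip group and 2.37 in barcodes with Cd3e UMIs. Lower too was Ces2a, a carboxylesterase, at 169.7 and 112 CPM (0.657-fold). Acadl, of fatty acid oxidation, was at 85.9 and 55.1 CPM and also lower in the other enterocyte groups (0.533- to 0.584-fold). Reg3a, a Reg lectin, and Selenop, a selenium carrier, were at 0.683- and 0.694-fold, short of 1.5-fold. Of the 10 lower genes 8 passed 1.5-fold the same way in the Lypd8l group, 6 in the mid-villus group, 3 in the tip group and 3 in barcodes with Cd3e UMIs, and 2 in all of these. Of the 3190 genes 22, 37, 79 and 15 were 1.5-fold lower in those groups. In those barcodes Tifa, Mt2, Gm5485, Ces2a and Aldh1a1 were instead 1.67- to 4.25-fold higher in Adipfl/flpVilli-CreT.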

How the data were processed

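Single-cell RNA was measured in 1 library per genotype. The authors aligned reads to mm10 and counted with Cell Ranger (7.1.0 per the file headers), and the deposited values are raw UMI counts per gene and barcode. The authors' own cell annotation was not used here. Counts were summed over the cells of a group and library and scaled to CPM, in Python 3.11.15 (pandas 2.3.3 and numpy 2.4.6 for sums, scipy 1.17.1 for intervals, matplotlib 3.10.9 for plots). A gene was measured between groups at 50 CPM or more in 1 of the 4 groups in each library, and between genotypes at 50 CPM in the higher library's members. With 1 library per genotype no test was made. A gene was counted when 2-fold past all 3 other groups in both libraries, or 1.5-fold between genotypes, and these folds are no test. The scripts were tested on simulated data. Doublets were not removed, and an alternative left out the deepest 5% of barcodes. Of all barcode sequences, 31 occurred in both libraries, and 0 were members in both. Cells were thinned to 2000 UMIs for detection.

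Genes named are those of the 4 score lists, of 38 gene lists, the 12 with the largest and 12 with the smallest ratio to the other groups at 100 CPM or more, and the 10 highest and 10 lowest genotype folds by the nearer interval limit, with at least 20 UMIs and detection in 10% of members. Herpud1, Dnajb9 and Acadl lay outside this rule and were named after their values were seen. Some members of the lists are not reported here. Members and lists were chosen with earlier results of these data known. Alternatives changed the mitochondrial limit, the weighting of cells, the minimum level and the depth.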

Additional observations from a re-analysis of the deposited data

Results flagged for a closer look

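Igkc, Igha and Jchain, which encode immunoglobulin chains and the chain that joins them, differed between the libraries in opposite directions in different enterocyte groups. In members Jchain was 2.1115-fold higher in Adipfl/flpVilli-CreT, against 0.00621-fold in the mid-villus group, 110.28-fold in the tip group and 0.334-fold in the Lypd8l group. Igkc was 2.0402-fold higher in members, against 0.0101-, 42.0- and 0.335-fold. Igha was 1.5026-fold higher, against 0.0149-, 27.1- and 0.348-fold. The difference between the groups was not tested, since each genotype has 1 library. In Adipfl/fl members 1 cell held 97.8% of Igkc UMIs, and in Adipfl/flpVilli-CreT members the richest 5 cells held 99.0%.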

How the results depend on the processing

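No paired analysis was possible because each genotype has 1 library, and no library could be left out for the same reason. The share ratio stayed within its interval in all 12 alternatives. Genes 2-fold higher in members than in all other groups numbered 295 of 3544 measured. With the mitochondrial limit at 10% they numbered 10 of 3506, and cells were also rescored and regrouped (121 and 216 members, against 259 and 501 of the members under 10%). They numbered 566 of 3386 with the 25% limit on only the 13 protein-coding mitochondrial genes. With a 10 CPM minimum they were 562 of 7613 and with no minimum 1477 of 55357, so the number measured rose as well. Within 10% to 15% mitochondrial UMIs they numbered 51 of 3538, and within 4000 to 8000 UMIs 193 of 3398. Of the same numbers measured, 95 genes were lower, and 22 with the 10% limit, 156 with 10 CPM, 16 within 10% to 15% and 50 within 4000 to 8000 UMIs. Of the ribosomal protein genes 40 were higher, and 0 with the 10% limit and its regrouping and 14 within 10% to 15%, where the groups were kept. Between genotypes, 24 of 3190 measured genes were higher, and 77 of 7390 with 10 CPM and 1517 of 15918 with no minimum. They were 202 of 3401 within 10% to 15% and 462 of 3531 within 4000 to 8000 UMIs, which left 45 and 75, and 36 and 70, members. Lower genes numbered 10, and 16 of 3269 with the 10% limit and 22 of 3231 with each cell weighted equally. Of the same numbers measured as for the higher genes, 76 were lower with 10 CPM, 2516 with no minimum, 129 within 10% to 15% and 430 within 4000 to 8000 UMIs. Goblet genes higher numbered 4, and 7 with 10 CPM. With the 10% limit 17 of the 24 higher and 7 of the 10 lower genes were shared. Leaving out the deepest barcodes gave 25 higher and 14 lower genes of 3163. Directions turned as follows, in log2. The mitochondrially encoded list over other groups was 0.5062 and 0.5052 within 10% to 15%, and 0.07319 and 0.1614 within 4000 to 8000 UMIs. The peptidase list in Adipfl/fl was 0.1141 with the limit on 13 genes. With the 10% limit the villus bottom list was -0.08177 and -0.262 and the Reg and lectin list in Adipfl/flpVilli-CreT -0.139. Lars2 over other groups was 0.04692 in Adipfl/fl within 10% to 15% and 0.2226 in Adipfl/flpVilli-CreT within 4000 to 8000 UMIs. Between genotypes, the B and plasma cell list was -2.244 within 4000 to 8000 UMIs, Gm5485 0.4021 and Igkc -0.01294 within 10% to 15%, and H1f4 0.141 within 4000 to 8000 UMIs. The cause of these shifts was not tested. The alternatives within 10% to 15% and 4000 to 8000 UMIs were chosen after seeing the data. Of the other values of named genes and lists, 1429 moved by less than 1.5-fold and 157 by more. At 6742551 and 11551215 UMIs over the members, a gene with no UMI could be at up to 0.445 and 0.260 CPM.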

Other observations

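Claudins of tight junctions differed in level between members and the tip group. Cldn4, which is known to seal the junction, was at 8.45 and 26.7 CPM in the Adipfl/fl and Adipfl/flpVilli-CreT members. In the tip group Cldn4 was at 1704 and 2029.8 CPM. Of 12 measured junction genes Cldn4 alone was past 2-fold of all other groups, downward, where 2.68% of all genes were. Cldn15, which forms sodium channels between cells, ran the other way, at 429 and 479.9 CPM in members and 152 and 212 in the tip group. Among keratins, Krt18 was at 66.6 and 82.2 CPM in members and 679.7 and 629 in the tip group, and Krt8, its partner, at 3065 and 3278 against 7759 and 7907. Cdx2, a master factor of intestinal identity, was at 151 and 146 CPM in members and 24.7 and 29.7 in the tip group, while Hnf4a, a factor of mature enterocytes, was at 199 and 191 against 422 and 429. Neither passed the limit.

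Supplementary legends of the paper call its cell clusters ileal, and levels of gut segment genes are given beside that. The segment that the members came from was not tested. Lct, the lactase of the upper small intestine, was at 629 and 568 CPM in members, and Fabp6, the ileal bile acid binding protein, at 7.86 and 5.80. Slc10a2, the ileal bile acid carrier, was at 0.742 and 0.952 CPM. Of 5 measured cholesterol synthesis genes none passed the limit. Hmgcs1, an early enzyme of the pathway, was at 112 and 141 CPM in members and 28.9 and 35.0 in the tip group. Among the 10 immediate early genes, whose RNA is known to respond to dissociation, none passed the limit, and Fos was at 709.7 and 679 CPM in members and 866 and 978 in the tip group.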
